A study of Mus musculus with 6 samples.

Results

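The circRNAs of chromatin modifier and remodeller genes made up 264 of the 11171 circRNAs listed for mouse cortex (2.36%; 95% Wilson confidence interval 2.10 to 2.66%). The rule that chose them used the host gene alone, although earlier results of these data were known. A circRNA was a member when the table gave it 1 host gene and that gene belonged to the Kdm, Kmt2, Kmt5, Setd, Nsd, Ehmt, Kat, Hdac, Chd, Smarc, Arid, Brd, Tet or Dnmt family, or was Ash1l, Ep300, Crebbp, Bptf, Ep400 or Atrx. The members came from 67 of 3469 single host genes and fell into 20 families. Only 3 circRNAs, of the katanin genes Katnal1 and Katnbl1, matched a family name by spelling and were left out, because katanins cut microtubules.

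Cortex of 6-week-old male C57BL/6 mice (C57BL/6J in the study's methods) was compared between a Control and a TLE (temporal lobe epilepsy) group of 3 libraries each, 1 library per mouse. TLE mice received scopolamine methyl bromide, then pilocarpine to induce Status Epilepticus (SE), and then diazepam to end it, and their cortex was taken 24 h after SE. Control mice received saline in place of each of these agents, so the effects of SE, pilocarpine, scopolamine methyl bromide and diazepam cannot be told apart. No altered allele is given for either group, and the tissue was whole cortex, in which fewer cells of a type and less RNA per cell cannot be told apart.

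A circRNA forms when the end of an exon is spliced back to the start of the same exon or of one upstream, and only reads across that back-spliced junction identify it. Chromatin regulators decide how tightly DNA is packed and which genes can be read. Histone methyltransferases, demethylases, acetyltransferases and deacetylases add or remove marks on histone tails, remodellers use ATP to move nucleosomes, bromodomain proteins bind acetylated histones, and Tet and Dnmt enzymes remove or add methyl groups on cytosine. Many of these genes are large, with long multi-exon transcripts, and many are linked to disorders of brain development. The values below are levels of circRNAs and not of the linear mRNAs or proteins of these genes.

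Levels were given in SRPBM, a level that corrects junction reads for how many reads a library had mapped, and 1 junction read was worth between 8.55 and 10.3 SRPBM. The libraries held between 32504 junction reads (TLE 1) and 56516 (TLE 3), and a level of 3 junction reads, 25.6 to 31.0 SRPBM, was taken as the floor for counting error in a single library. A 0 below means listed at 0. The total SRPBM was 1.18 times as high in TLE as in Control libraries, and libraries were therefore also compared after rescaling to the same total. Of 37 marker genes of cortical cell types, 5 had a circRNA. Of the neuronal genes, Syt1 was at 129 to 289 SRPBM in every library, Rbfox3 at 0, 18.6 and 34.5 in Control and 0 in every TLE library, and Nrgn at 27.9 in Control 2 and 0 elsewhere. Rbfox3 and Nrgn rest on 6 and 3 junction reads, and the listed markers of astrocytes (Slc1a2) and oligodendrocytes (St18) were at 0 in 4 libraries each. Markers of precursors, microglia and endothelium had no circRNA, so the cortex label could be checked only through neurons and in practice through Syt1.

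The junction sequences of the circRNAs that carry the results are shown first, from GENCODE M21 transcripts of build GRCm38. Each runs 5′ to 3′ over the back-spliced junction, with 20 bases of the last exon in lower case and 20 bases of the first exon in capitals. The first set holds the 3 most abundant members and 2 of the abundant members that did not overlap between the groups.
Kat6b mmu_circ_0002372: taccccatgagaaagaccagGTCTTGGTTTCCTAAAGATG
Nsd2 mmu_circ_0008096: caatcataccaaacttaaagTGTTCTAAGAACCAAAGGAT
Nsd2 mmu_circ_0008099: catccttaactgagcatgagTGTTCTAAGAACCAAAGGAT
Setd3 mmu_circ_0001219: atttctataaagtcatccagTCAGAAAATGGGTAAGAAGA
Smarca1 mmu_circ_0011055: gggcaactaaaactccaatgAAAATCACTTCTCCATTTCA

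The second set holds the 5 members past the threshold between TLE and Control, and the other Kdm2a circRNAs whose groups did not overlap.
Nsd3 mmu_circ_0009837: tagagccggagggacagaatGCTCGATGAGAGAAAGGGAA
Nsd3 mmu_circ_0009840: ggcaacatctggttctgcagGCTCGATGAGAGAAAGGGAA
Kdm2a mmu_circ_0004508: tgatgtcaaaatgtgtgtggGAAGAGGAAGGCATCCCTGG
Kdm2a mmu_circ_0004507: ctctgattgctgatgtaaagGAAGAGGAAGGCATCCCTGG
Kdm2a mmu_circ_0004505: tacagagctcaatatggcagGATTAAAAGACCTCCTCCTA
Chd2 mmu_circ_0009552: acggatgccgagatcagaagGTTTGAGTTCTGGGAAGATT
Smarca1 mmu_circ_0011059: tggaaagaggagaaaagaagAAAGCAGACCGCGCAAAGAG

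In both sets some circRNAs of 1 gene share their capitals and differ in lower case. The Nsd2 pair, the Nsd3 pair and Kdm2a mmu_circ_0004508 and mmu_circ_0004507 each begin at the same exon and end at different ones. Of all 264 members, 184 shared an end with another member of the same gene.

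Chromatin-host circRNAs took between 2.38 and 2.53% of the cortical circRNA signal in every library, while more of them were detected in TLE libraries. Their summed level was 8896, 8349 and 9053 SRPBM in Control libraries and 8501, 9732 and 12149 in TLE libraries, with means of 8766 ± 370 and 10127 ± 1856 (SD, n = 3). The groups overlapped, and the sum was highest in TLE 3, which was also the deepest library. As a share of all SRPBM the members took 2.53, 2.52 and 2.51% in Control and 2.53, 2.38 and 2.48% in TLE. The number of members detected was 106, 97 and 98 in Control and 109, 121 and 154 in TLE, without overlap. All circRNAs detected numbered 4624, 4288 and 4659 in Control and 3989, 5052 and 5976 in TLE. Members made up 2.29, 2.26 and 2.10% of the circRNAs detected in Control and 2.73, 2.40 and 2.58% in TLE, again without overlap.

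A few circRNAs carried most of this signal. The 12 most abundant members held 56.2% of the members' SRPBM, and the 2 leading genes, Nsd2 and Kat6b, held 31.0%. At the other end, 118 members (44.7%) were listed in 1 library only, against 45.4% of all circRNAs, and 33 (12.5%) in all 6 libraries, against 13.9%. The median member had 5 junction reads over all libraries, as did the median of all circRNAs. Counting error was therefore smallest for the 13 members with 100 or more junction reads and large for the 170 with at most 10.

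**Figure D1:**
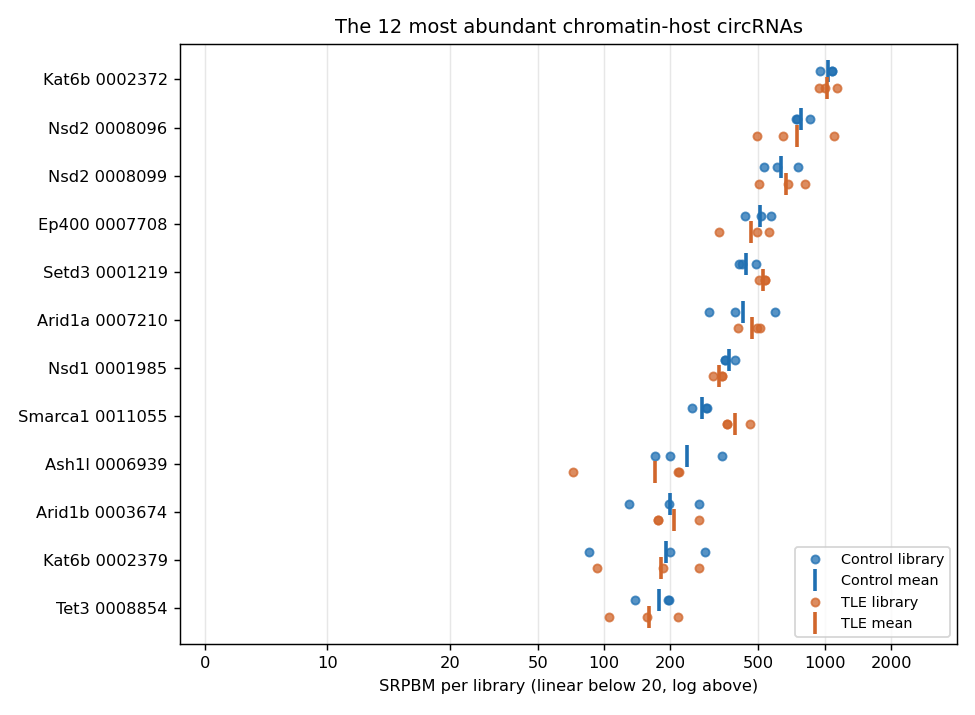
SRPBM in each library of the 12 most abundant chromatin-host circRNAs (circles, Control in blue and TLE in orange; vertical ticks, group means; the axis is linear below 20 and logarithmic above). Kat6b mmu_circ_0002372 leads at 943 to 1140 SRPBM, and 9 of the 12 show overlapping groups.

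The most abundant member was mmu_circ_0002372 of Kat6b, a MYST-type histone acetyltransferase (chr14:21516626-21517498, plus strand). It consists of exon 2 alone, 873 nucleotides with the start codon of the gene, and ranked 25th among all 11171 circRNAs. Its level was 949, 1078 and 1077 SRPBM in Control and 1002, 1140 and 943 in TLE, with a log2 fold change (TLE minus Control, on the log2(SRPBM + 17.1) scale used throughout) of -0.01 ± 0.20 (SE). It made up 71.6% of the SRPBM of Kat6b. The longer Kat6b mmu_circ_0002379, of exons 8 to 16, stood at 85.5, 288 and 198 SRPBM in Control and 93.0, 184 and 268 in TLE, and its groups overlapped too.

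Nsd2 and Nsd1 encode methyltransferases of lysine 36 of histone H3. Nsd2 mmu_circ_0008096 (exons 3 and 4; chr5:33843112-33846267, plus strand) was at 743, 855 and 749 SRPBM in Control and 496, 649 and 1108 in TLE. Nsd2 mmu_circ_0008099 (exons 3 to 10; chr5:33843112-33868878) was at 607, 530 and 758 SRPBM in Control and 506, 684 and 813 in TLE. TLE values spread more widely than Control values in both, and the groups overlapped. Nsd1 mmu_circ_0001985 (exons 3 to 5) was lower in every TLE library, at 393, 353 and 353 SRPBM against 341, 342 and 312, a log2 fold change of -0.14 ± 0.24 (adjusted p = 0.922). After rescaling its groups overlapped.

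Setd3, a SET-domain methyltransferase best known for methylating a histidine of actin, gave nearly all of its signal through mmu_circ_0001219 (exons 2 to 6; chr12:108157754-108165172, minus strand). It stood at 487, 409 and 422 SRPBM in Control and 506, 535 and 536 in TLE. All TLE libraries were higher, with a log2 fold change of 0.25 ± 0.23 (adjusted p = 0.922), and the groups overlapped after rescaling. The exact permutation test gave p = 0.1 here, as for every circRNA without overlap, which is the smallest p that 3 against 3 libraries allow.

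The other leading circRNAs overlapped between groups, with the exception of the Smarca1 circRNA described below. Ep400, the ATPase of the TIP60 complex, was led by its exon 2 alone (mmu_circ_0007708, 1370 nucleotides), at 573, 437 and 517 SRPBM in Control and 331, 561 and 493 in TLE. Arid1a and Arid1b, DNA-binding subunits of the BAF remodelling complex, were led by circRNAs of exons 2 to 4, and Arid1a mmu_circ_0007210 was at 393, 298 and 594 SRPBM in Control and 403, 509 and 493 in TLE. Tet3, which oxidises methylcytosine, was led by its exon 4 alone (mmu_circ_0008854, 2158 nucleotides), at 197, 195 and 138 SRPBM in Control and 217, 105 and 156 in TLE. Ash1l, another methyltransferase of lysine 36 of histone H3, was led by mmu_circ_0006939 (exons 2 and 3), at 171, 344 and 198 SRPBM in Control and 72.3, 219 and 216 in TLE.

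To compare TLE with Control, limma was fitted to the 4271 circRNAs above 0 in at least 3 libraries, which included 107 members. A call required a log2 fold change of at least 1.5 and an unadjusted p under 0.05, the threshold of the study. The other 157 members were in too few libraries to be tested. Of the 107 tested, 5 (4.67%) were past the threshold and higher in TLE, against 1.26% of all circRNAs tested. None was lower, against 0.304%. Of these 5, 3 were at 0 in every Control library and entered the test only through the TLE libraries in which they were high, so their difference followed from the filter and their fitted values are not given. Among the 103 members above 0 in both groups 2 (1.94%) were past the threshold, against 0.578% of all such circRNAs. These 2, Nsd3 mmu_circ_0009840 and Smarca1 mmu_circ_0011059, were each at 0 in 2 Control libraries and above 0 in every TLE library. Their TLE libraries alone met the filter, so this share is not free of the filter either. No member passed after Benjamini-Hochberg adjustment over all circRNAs, and the lowest adjusted p was 0.838. At an unadjusted p under 0.05 alone there were 6 members (5.61%), against 5.2% of all.

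The middle of the distribution did not set the members apart. Their median log2 fold change was 0.19, with 65 of 107 above 0 (60.7%), against 0.17 and 60.5% for all circRNAs tested. After rescaling to the same total the medians were 0.04 and 0.01. Of the members tested, 11 (10.3%) were higher in all TLE than in all Control libraries, against 8.94% of all circRNAs, and 3 (2.80%) were lower in all, against 2.11%. These include the 3 members at 0 in every Control library and 1, Ep400 mmu_circ_0007706, at 0 in every TLE library. After rescaling these counts were 7 and 4, against 5.08% and 4.96% of all. Members at 0 in every library of a group could not lose their separation on rescaling.

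**Figure D2:**
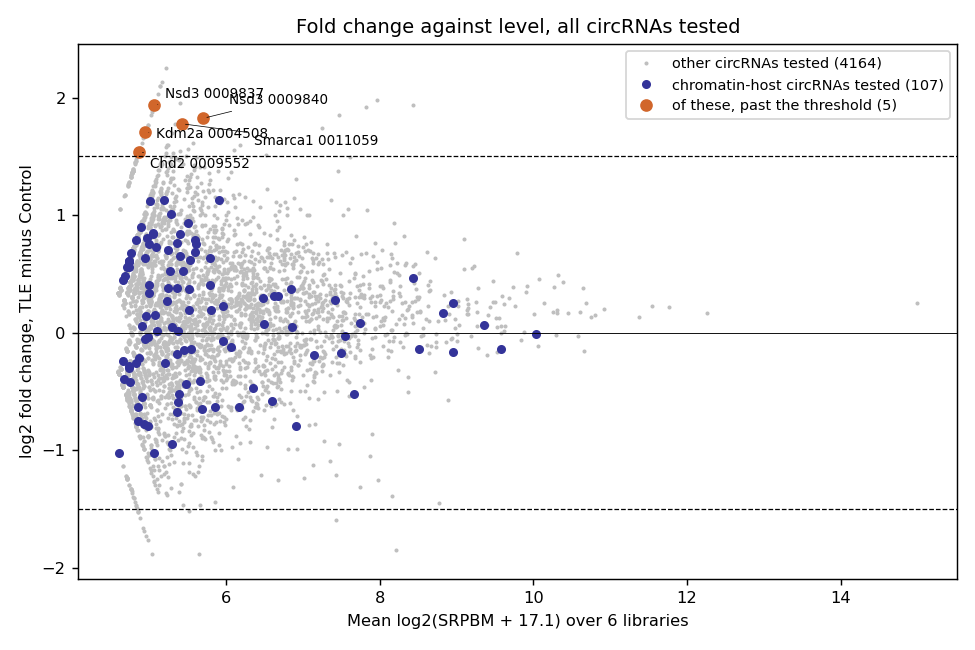
Log2 fold change (TLE minus Control) against the mean log2(SRPBM + 17.1) of the 4271 circRNAs tested (grey), with the 107 chromatin-host circRNAs in blue, the 5 past the threshold in orange and dashed lines at log2 fold changes of 1.5 and -1.5. The 5 called circRNAs, 3 of them at 0 in every Control library, lie at the low end of the levels, and members above a mean of 8 lie close to 0.

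All 5 called circRNAs were low, with 33 junction reads or fewer over the 6 libraries, and in 4 of them every Control library was at or under the floor of 3 reads. Their host genes fall into 3 roles: Nsd3 is a histone methyltransferase, Kdm2a a demethylase, and Chd2 and Smarca1 are remodellers.

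Nsd3, the third Nsd methyltransferase and the only gene with 2 called circRNAs, was at 0 for mmu_circ_0009837 in every Control library and at 41.3, 52.6 and 51.9 SRPBM in TLE. This circRNA is exon 2 alone (chr8:25640577-25641325, plus strand, 749 nucleotides). The TLE mean was 1.84 times the mean Control floor of 3 reads per library. This ratio takes no account of the counting error of the TLE values, so it is not a lower bound. Nsd3 mmu_circ_0009840 (exons 2 to 7; chr8:25640577-25666156) was at 0, 55.8 and 0 SRPBM in Control and 82.6, 105 and 60.6 in TLE. The lowest TLE value lay just above the Control library that had reads, and the log2 fold change was 1.83 ± 0.64 (unadjusted p = 0.011, adjusted p = 0.838). Without Control 1 or Control 3 it was 1.48, under the threshold, and after rescaling the groups overlapped.

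The other 7 Nsd3 circRNAs stayed at or below 31 junction reads. Mmu_circ_0009838 (exons 2 to 4) averaged 38.1 SRPBM in Control and 53.5 in TLE, and mmu_circ_0009843 (exons 5 to 7) averaged 20.1 and 45.7. Summed over the gene, Nsd3 was at 76.9, 158 and 77.5 SRPBM in Control and 207, 324 and 225 in TLE. No Control library reached the lowest TLE library, and the log2 fold change was 1.19 ± 0.37 (unadjusted p = 0.0048, adjusted p = 0.728), short of the fold threshold. After rescaling, the sums of the groups overlapped.

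Kdm2a, a demethylase of lysine 36 of histone H3 that binds unmethylated CpG islands, had circRNAs on opposite sides in TLE, none of which passed adjustment. Kdm2a mmu_circ_0004508 (exons 2 to 5; chr19:4361538-4394892, minus strand) was at 0 in every Control library and at 31.0, 35.1 and 51.9 SRPBM in TLE. The TLE mean was 1.49 times the same Control floor, and TLE 1 lay at its own floor of 3 reads. Kdm2a mmu_circ_0004507, from the same first exon to exon 12, was at 17.1, 27.9 and 25.8 SRPBM in Control and 93.0, 43.8 and 86.5 in TLE. Its log2 fold change of 1.13 ± 0.51 (unadjusted p = 0.042, adjusted p = 0.881) was short of the fold threshold. The unadjusted p was 0.079 after rescaling. Without Control 1, Control 3, TLE 1 or TLE 3 it was 0.089, 0.057, 0.106 and 0.113.

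At the 3′ end of the gene, Kdm2a mmu_circ_0004505 (exons 19 and 20; chr19:4320152-4321056) was at 59.8, 46.5 and 60.3 SRPBM in Control and 20.7, 35.1 and 34.6 in TLE. It was lower in every TLE library, with a log2 fold change of -0.63 ± 0.51 (unadjusted p = 0.232, adjusted p = 0.922). Kdm2a mmu_circ_0004507 and mmu_circ_0004505 kept their separation of the groups after rescaling. That of mmu_circ_0004508, at 0 in every Control library, could not be lost on rescaling. The difference in direction between these 3 circRNAs was not tested.

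**Figure D3:**
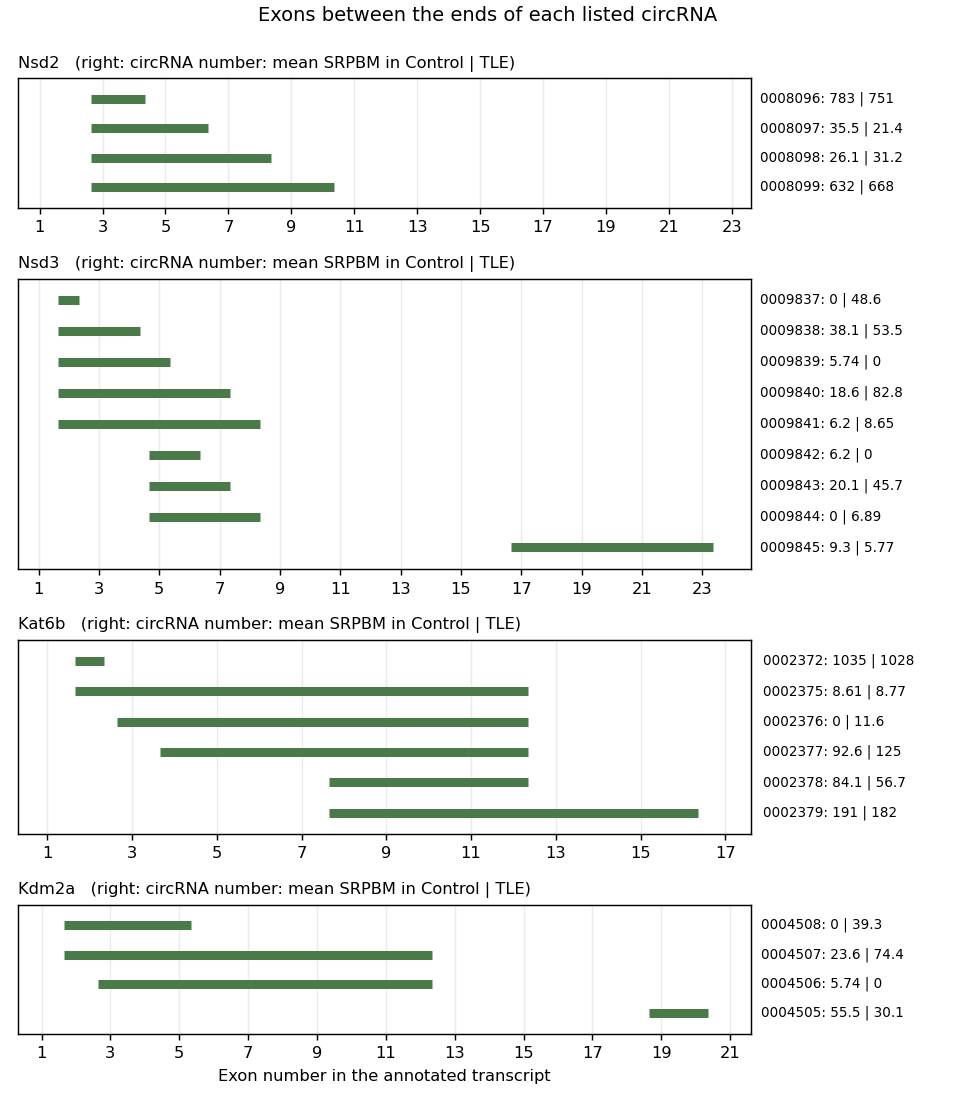
Exons between the ends of the circRNAs of Nsd2, Nsd3, Kat6b and Kdm2a that could be placed on 1 annotated transcript of each gene (green bars), with the circRNA number and its mean SRPBM in Control and TLE at the right. Circles of Nsd2 start at exon 3, 5 of 9 Nsd3 circles start at exon 2, and the Kdm2a circles at exon 2 and at exon 19 lie on opposite sides in TLE. None of these Kdm2a circles passed adjustment.

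Chd2, a chromodomain remodeller, had 13 circRNAs, and mmu_circ_0009552 (exons 17 to 26; chr7:73468456-73484597, minus strand) was at 0 in Control and 51.6, 17.5 and 34.6 SRPBM in TLE. The TLE mean was 1.31 times the same Control floor, which again is not a lower bound, and TLE 2 held only 2 junction reads. The call was lost on rescaling and without TLE 1. The most abundant Chd2 circRNA, mmu_circ_0009562 (exons 3 to 5), averaged 107 SRPBM in Control and 68.6 in TLE, and the sum of the gene overlapped between groups, at 139 to 215 and 70.1 to 258.

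Smarca1, the ISWI-type ATPase SNF2L, had both a low called circRNA and an abundant one with a small difference. Smarca1 mmu_circ_0011059 (exons 3 to 15; chrX:47851645-47884203, minus strand) was at 25.6, 0 and 0 SRPBM in Control and 62.0, 26.3 and 130 in TLE. Control 1 and TLE 2 were nearly level, the groups overlapped after rescaling, and the log2 fold change was 1.78 ± 0.67 (unadjusted p = 0.016, adjusted p = 0.838). Without Control 2 the unadjusted p was 0.060, and without TLE 3 the log2 fold change was 1.34. The abundant mmu_circ_0011055 (exons 2 to 23; chrX:47811158-47887198) was at 291, 251 and 293 SRPBM in Control and 362, 359 and 459 in TLE.

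Every TLE library exceeded every Control library for this abundant Smarca1 circRNA, before and after rescaling, although the log2 fold change of 0.47 ± 0.25 (adjusted p = 0.922) did not pass. Over all 7 Smarca1 circRNAs the sum was 393, 335 and 327 SRPBM in Control and 475, 456 and 718 in TLE (log2 fold change 0.59 ± 0.27, unadjusted p = 0.039, adjusted p = 0.772).

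**Figure D4:**
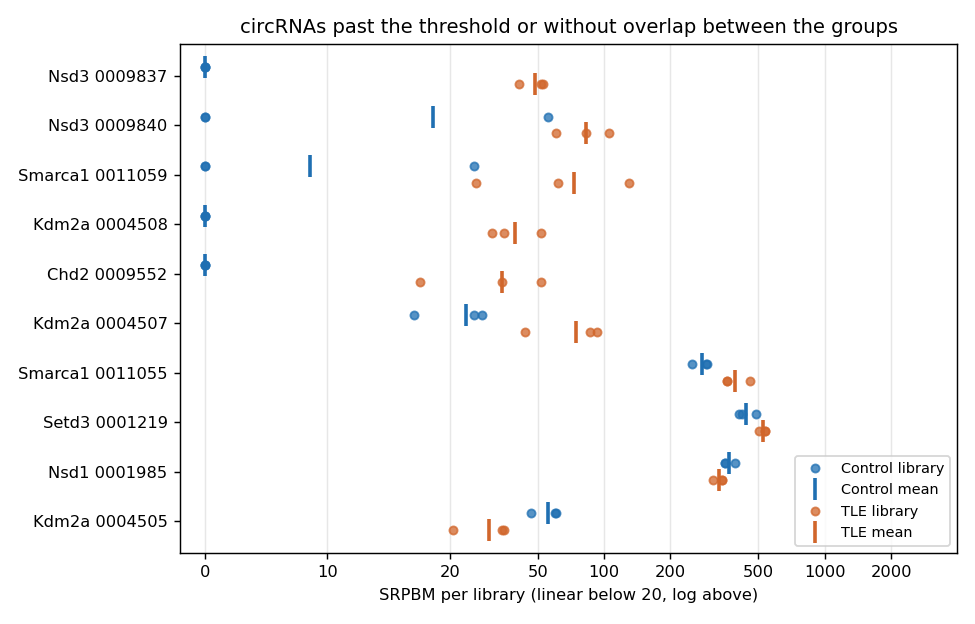
SRPBM in each library of the members past the threshold, or with at least 20 junction reads and no overlap between groups, sorted by log2 fold change (circles, Control in blue and TLE in orange; ticks, group means; the axis is linear below 20 and logarithmic above). Control libraries at 0 make up most of the called cases, and the abundant Smarca1, Setd3 and Nsd1 circRNAs separate by small distances. For Setd3 and Nsd1 this separation was lost after rescaling.

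When circRNAs were summed per host gene, 49 of the 67 member genes were above 0 in at least 3 libraries and were tested beside 2157 host genes in all. One of them, Smarcc1 (2.04%), was past the threshold and higher in TLE, against 1.53% of all host genes, and none was lower, against 0.371%. The lowest adjusted p of a member gene was 0.728. At an unadjusted p under 0.05 there were 7 member genes (14.3%), against 6.17% of all. Without overlap, 8 member genes (16.3%) were higher in TLE, against 10.7%, and none was lower, against 1.95%.

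Rescaling changed these gene-level counts. The groups then separated with TLE higher for Smarcc1 and Hdac4 only, 2 of 49 genes against 5.61% of all host genes (Hdac4 was tested only through its TLE libraries, being at 0 in every Control library), and with TLE lower for Nsd2, Kat6b and Tet1, 3 of 49 against 4.73%. The median log2 fold change was 0.28 over the 49 genes, with 35 above 0, and 0.20 over all host genes, and after rescaling 0.11 and 0.02.

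By family, Nsd and Kat had overlapping groups as deposited, at 2025, 1999 and 2016 SRPBM in Control and 1725, 2069 and 2700 in TLE for Nsd, and at 1401, 1525 and 1585 against 1312, 1596 and 1549 for Kat. After rescaling both were lower in all TLE libraries, at 0.903 and 0.845 times the Control mean.

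Among the histone methyltransferases, 87 circRNAs of 14 genes held 40.9% of the members' SRPBM. Of 11 genes tested none was past the threshold, against 1.53% (TLE higher) and 0.371% (TLE lower) of all host genes. Nsd3 and Setd3, 2 of the 11, were higher in all TLE libraries, against 10.7% of all host genes. Setd3, best known for methylating actin, was placed in this role by its family name. Kmt2c, which places methyl groups on lysine 4 of histone H3 at enhancers, was at 51.3, 83.7 and 233 SRPBM in Control and 186, 272 and 329 in TLE. Control 3 lay within the TLE range, and the log2 fold change was 1.19 ± 0.43 (unadjusted p = 0.013, adjusted p = 0.728). Leaving out each library in turn gave 0.78 (without Control 1) to 1.72 (without Control 3). The unadjusted p was 0.089 without Control 1 and 0.065 without Control 2. Ehmt1, which methylates lysine 9 of histone H3, was at 214, 74.4 and 138 SRPBM against 196, 272 and 208, with overlap (0.69 ± 0.38, adjusted p = 0.834). Ash1l, with 17 circRNAs the member with the most, summed to 555, 707 and 680 SRPBM in Control and 578, 316 and 1047 in TLE, so that the TLE values lay on both sides of the Control values.

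Histone demethylases contributed 28 circRNAs of 12 Kdm genes. Their summed level was 419, 316 and 388 SRPBM in Control and 434, 535 and 666 in TLE, and the groups remained apart after rescaling (1.23 times as high in TLE). Of 9 genes tested none was past the threshold, against 1.53% (TLE higher) and 0.371% (TLE lower) of all host genes. Kdm2a summed to 76.9, 74.4 and 103 SRPBM in Control and 145, 114 and 173 in TLE, without overlap (0.65 ± 0.40, adjusted p = 0.854). Kdm4c, a demethylase of lysine 9 of histone H3, was at 76.9, 46.5 and 25.8 against 20.7, 123 and 190, with overlap.

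Histone acetyltransferases, 24 circRNAs of 6 genes, overlapped between the groups, at 1530, 1822 and 1809 SRPBM in Control and 1508, 1841 and 1852 in TLE. None of 4 genes tested was past the threshold, against 1.53% (TLE higher) and 0.371% (TLE lower) of all host genes. Beside Kat6b, Ep300 was at 51.3, 195 and 172 SRPBM against 72.3, 175 and 156, and its paralogous coactivator Crebbp at 76.9, 102 and 51.7 against 124, 70.1 and 147. Both overlapped between the groups.

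Histone deacetylases were the smallest of the enzyme groups on histones and differed most in relative terms. Their 15 circRNAs of 4 genes summed to 103, 195 and 51.7 SRPBM in Control and 258, 228 and 216 in TLE, 2.01 times as high on average, and overlapped after rescaling. Hdac9, a class IIa deacetylase that moves between nucleus and cytoplasm, was at 85.5, 130 and 34.5 SRPBM in Control and 165, 158 and 182 in TLE (1.01 ± 0.43, unadjusted p = 0.031, adjusted p = 0.766). The unadjusted p for Hdac9 was 0.073 after rescaling. Leaving out each library in turn gave log2 fold changes of 0.59 (without Control 3, unadjusted p = 0.18) to 1.35 (without Control 2). Hdac4, of the same class, was at 0 in every Control library and at 41.3, 26.3 and 17.3 SRPBM in TLE, 9 junction reads in all. Neither passed the fold threshold.

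As ATP-dependent remodellers and their subunits, the Chd, Smarc, Arid, Bptf, Ep400 and Atrx families were grouped by name. This group gave the most members, 94 circRNAs of 25 genes with 28.5% of the SRPBM. Single genes in it, such as Arid4a, Arid4b and Arid5b, need not act in remodelling complexes. The Smarc family summed to 496, 493 and 508 SRPBM in Control and 640, 736 and 1082 in TLE, 1.64 times as high, and 1.37 times after rescaling, still without overlap. Smarcc1, a core subunit of BAF complexes and the called gene, was at 0, 18.6 and 0 SRPBM in Control and 62.0, 26.3 and 86.5 in TLE. The TLE libraries alone met the filter for this gene, so its call is not free of the filter. Only 21 junction reads over 2 circRNAs stood behind its log2 fold change of 1.70 ± 0.64 (unadjusted p = 0.016, adjusted p = 0.728), and the unadjusted p was 0.053 without Control 1, 0.050 without Control 3 and 0.064 without TLE 3. Chd9, led by its exon 3 alone, was at 154, 195 and 241 SRPBM in Control and 320, 377 and 312 in TLE (0.74 ± 0.30, unadjusted p = 0.023, adjusted p = 0.766).

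The Chd family as a whole was at 461, 409 and 474 SRPBM in Control and 630, 517 and 666 in TLE, and overlapped after rescaling. The Arid family, at 786, 669 and 913 against 661, 850 and 1047, and Ep400, at 718, 549 and 620 against 393, 745 and 666, overlapped. Smarca2, the other catalytic ATPase of BAF complexes beside Smarca4, was at 59.8, 112 and 138 SRPBM against 62.0, 158 and 234, with overlap. Atrx, a remodeller of repetitive DNA, had 32 junction reads and Bptf, the largest subunit of NURF, 14.

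Genes of DNA methylation and bromodomain readers contributed 8 circRNAs each. The Tet family was at 385, 335 and 310 SRPBM in Control and 351, 263 and 372 in TLE, and Dnmt3a, the de novo methyltransferase and the only Dnmt host, at 120, 102 and 86.1 against 114, 140 and 86.5. Tet1 was at 145, 121 and 155 against 72.3, 140 and 147. None of the 5 genes tested in these roles was past the threshold, against 1.53% (TLE higher) and 0.371% (TLE lower) of all host genes.

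**Figure D5:**
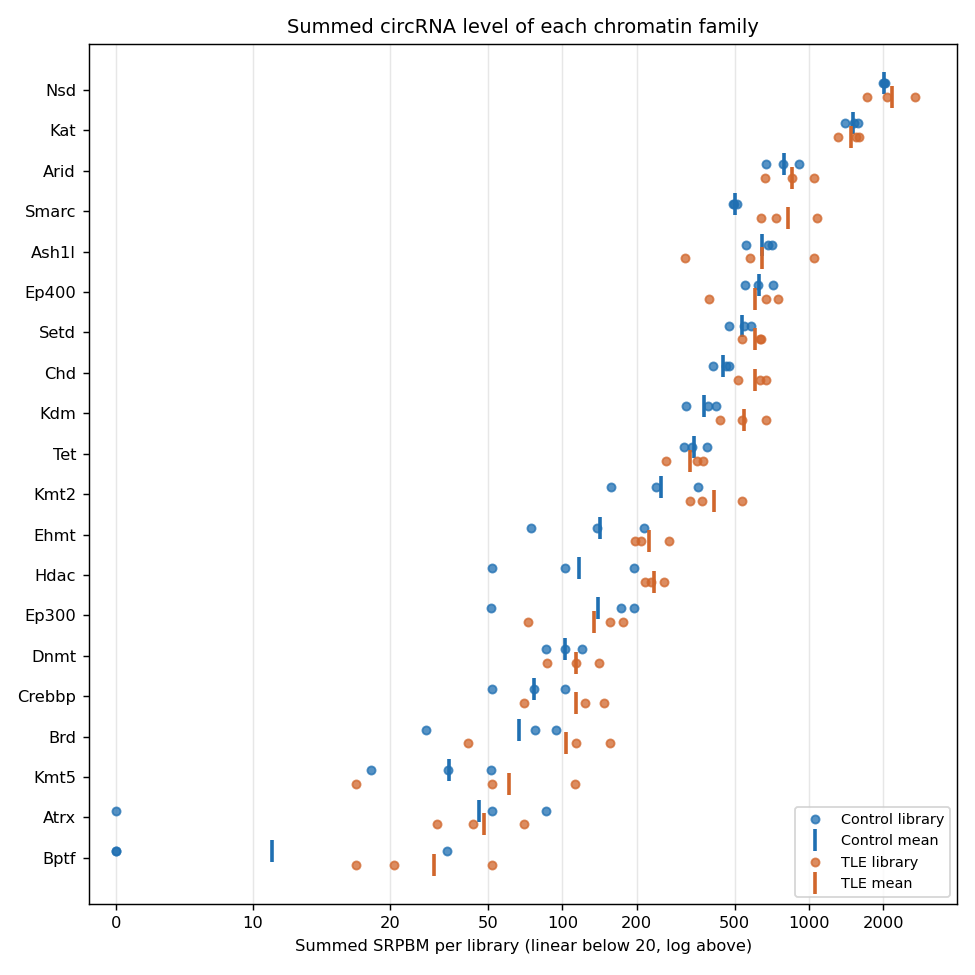
Summed SRPBM of the member circRNAs of each of the 20 families in each library (circles, Control in blue and TLE in orange; ticks, group means; the axis is linear below 20 and logarithmic above), sorted by mean level. Smarc, Chd, Kdm and Hdac are the 4 families in which every TLE library lies above every Control library, and for Smarc and Kdm this held after rescaling, when every TLE library lay below every Control library for Nsd and Kat. As deposited, the total SRPBM was 1.18 times as high in TLE, and 10.7% of all host genes tested were higher in every TLE library.

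The structure of the members was read from the annotation, since junction reads do not show which inner exons were kept. Both ends lay on exon boundaries of 1 transcript for 248 of 264 members (93.9%), against 89.7% of all circRNAs with 1 host. The median was 4 exons for both, but the summed exon length was 848 nucleotides against 608. Host transcripts had a median of 27 exons against 18. The introns before and after the circRNA were shorter, with medians of 8152 and 6272.5 bases, against 10308 and 8691.5.

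Single-exon circRNAs made up 16 of the 248 placed members (6.45%; 95% Wilson confidence interval 4.01 to 10.2%), against 3.95% of all. All 16 were among the members above 0 in at least 3 libraries, where they made up 15.4% (9.70 to 23.5%) against 5.77%. They came from large exons, with a median of 1003.5 nucleotides against 727, such as exon 3 of Ash1l (4558 nucleotides) and exon 3 of Tet2 (3206). Kat6b, Ep400, Tet3 and Chd9 led their genes with such a circRNA. Intervals cover counting error only, since circRNAs of 1 gene are not independent.

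Members began at exon 2 in 22.2% of cases (17.5 to 27.8%), less than the 29.9% of all circRNAs, and the start codon lay between the ends in 18.5% against 15.2%. Among the 12 most abundant members 10 began at exon 2 or 3 and 6 held the start codon. The spliced length was a multiple of 3 in 43.1% (37.1 to 49.4%) of members and in 38.0% of all.

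Chromatin regulators outside these families were read from a second list. This list of 127 further genes, among them polycomb, histone arginine methyltransferase and corepressor genes, had circRNAs for 71 genes and 265 circRNAs in all. Of 107 of these tested, none was past the threshold in either direction, against 1.26% higher and 0.304% lower among all circRNAs tested. Of 52 host genes tested none was past the threshold with TLE higher, against 1.53% of all host genes, and 1 was with TLE lower, against 0.371%. The lower gene was Brwd3, a bromodomain protein, at 59.8, 83.7 and 34.5 SRPBM in Control and 0, 0 and 43.3 in TLE (unadjusted p = 0.036, adjusted p = 0.766). Without overlap, 2 of the 52 genes were higher in TLE, against 10.7% of all host genes, and 1 was lower, against 1.95%. The median over these genes was 0.19, against 0.20 for all. The most abundant was Phf21a, a subunit of the Kdm1a corepressor complex, at 1624, 1673 and 1723 SRPBM against 1302, 1876 and 2466, with overlap. Prmt3, an arginine methyltransferase, was at 59.8, 27.9 and 86.1 SRPBM in Control and 114, 149 and 199 in TLE (1.24 ± 0.45, unadjusted p = 0.013, adjusted p = 0.728), short of the fold threshold.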

How the data were processed

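Ribosomal RNA was removed from total RNA of cortex, and directional paired-end libraries were sequenced. The authors aligned reads with BWA-MEM to mm10, identified circRNAs with CIRI and deposited each level as a normalized signal in SRPBM (junction reads scaled by mapped reads); versions are not given in the sources used here. DESeq2 was the test of the authors. The same table was deposited for each of the 6 samples, and each column was matched to its sample by title. Every value was a whole multiple of 1 junction read, within 0.1 read, and the smallest listed was 2 reads, so a 0 may hide a single read. Members and gene lists were chosen with earlier results of these data known.

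Host symbols were found for 3466 of 3469 Ensembl IDs. Another 61 circRNAs with several hosts and 837 with none could not be members. Levels were compared with limma 3.58.1 (R 4.3.3; two-sided lmFit and eBayes with a mean trend). Values were log2(SRPBM + 17.1), the pseudocount being the smallest level listed. The fit ran over features above 0 in at least 3 libraries, with Benjamini-Hochberg adjustment over all of them. Fold changes on this scale understate the change of low features. Exact permutation tests were two-sided. Ends were placed on GENCODE M21 (GRCm38). Named were all families, the 20 genes and 12 circRNAs with the highest means, all past the threshold, circRNAs with at least 20 reads without overlap (at most 15), and the 5 genes with the most circRNAs. Other circRNAs and genes, those of the 127-gene list included, were named after their values were seen. The fit was also run on simulated junction reads with counting noise only, in which only more abundant circRNAs were changed. That run does not cover features as low as the called members. Pseudocounts, filters, scaling, the variance model, a replicate block, the fold threshold and each library left out were varied. Replicate libraries differed by more than counting noise, with a chi-square per degree of freedom of 1.75 to 2.49.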

Additional observations from a re-analysis of the deposited data

How the results depend on the processing

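The number of member circRNAs past the threshold and higher in TLE stayed within 1.5 times of 5 under every alternative run. Kdm2a mmu_circ_0004507 joined them with a pseudocount of 1 SRPBM (log2 fold change 1.57). The members called were not always the same. Nsd3 mmu_circ_0009840 fell to 1.48 without Control 1, and Chd2 mmu_circ_0009552 to 1.31 without TLE 1. The number stayed at 5 in both cases, so another member took the place. For the 3 at 0 in every Control library, leaving out a Control library could not change the log2 fold change. The number lower in TLE was 0, and 1 (Ep400 mmu_circ_0007706, 6 junction reads) with a pseudocount of 8.55 or of 1 SRPBM; it ranged from 0 to 1 when each library was left out, with Kdm1a mmu_circ_0007221 lower without TLE 3. Member genes higher in TLE numbered 1, and 2 with a pseudocount of 8.55 or of 1 SRPBM, 5 at a log2 fold change of 1, and 0 to 2 when each library was left out (0 without Control 1, 2 without TLE 3, and without Control 3 it was Kmt2c in place of Smarcc1). The summed level of all members, 1361 SRPBM higher in TLE, was 218 lower after rescaling (-218), and without TLE 3 it was 351 higher; the cause was not tested. On rescaling, the difference (TLE minus Control) of the Nsd family went from 151 to -213 SRPBM and that of the Kat family from -18.2 to -256. The lowest adjusted p of a member circRNA ranged from 0.267 to 0.978 over the alternatives, and that of a member gene from 0.39 to 0.948.

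Small log2 fold changes that were not past the threshold changed sign. Rescaling gave -0.15 for Nsd2 mmu_circ_0008099, -0.0468 for Arid1a mmu_circ_0007210, -0.13 for Arid1b mmu_circ_0003674, and over genes -0.0732 for Arid1a, -0.18 for Nsd1, -0.0802 for Arid1b, -0.17 for Ep300. Leaving out each library in turn gave -0.0858 to 0.0485 for Kat6b mmu_circ_0002372, -0.45 to 0.12 for Nsd2 mmu_circ_0008096, -0.084 to 0.25 for Nsd2 mmu_circ_0008099, -0.31 to 0.055 for Ep400 mmu_circ_0007708, -0.0524 to 0.43 for Arid1a mmu_circ_0007210, -0.17 to 0.31 for Arid1b mmu_circ_0003674, -0.47 to 0.34 for Kat6b mmu_circ_0002379, -0.40 to 0.0704 for Tet3 mmu_circ_0008854. Over genes it gave -0.28 to 0.14 for Nsd2, -0.0746 to 0.0696 for Kat6b, -0.57 to 0.27 for Ash1l, -0.28 to 0.17 for Ep400, -0.0919 to 0.43 for Arid1a, -0.0566 to 0.15 for Nsd1, -0.0735 to 0.36 for Arid1b, -0.38 to 0.45 for Chd2, -0.37 to 0.10 for Tet3, -0.48 to 0.38 for Ep300, -0.40 to 0.0358 for Tet1.

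The replicate numbers did not pair the samples: the deviations of libraries with the same number correlated at 0.019, 0.014 and 0.010. With the replicate block 5 member circRNAs were higher and 0 lower, and 1 gene was higher and 0 lower, as without it. Count tests on junction reads (edgeR and DESeq2) were planned but not run, because the listed values begin at 2 reads and whole counts could not be taken as complete.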
